A study of Sus scrofa with 74 samples.

Results

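The animals described here are 48 of 74 pigs with muscle RNA measured on Affymetrix Porcine Genome Arrays, chosen by the intensity of RPS10, the gene of a protein of the small ribosomal subunit. All 74 were F2 animals of a Duroc and Pietrain resource population, slaughtered at a mean weight of 110 kg, and the sample came from M. longissimus dorsi, a long back muscle, snap frozen at slaughter. Each animal gave 1 array, and the study set the arrays against drip loss, the water that meat loses on storage. The study's animals were free of the RYR1 mutation that causes malignant hyperthermia. Sex, family, slaughter date and drip loss of each animal are not among the labels. Many of the animals are full siblings by the study's methods, and the p-values below treat them as independent.

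The groups were formed in these steps. Intensities of an array were multiplied so that their mean, without the lowest and highest 2%, became 500, values under 1 were raised to 1, and log2 was taken. The labels number the animals 1 to 33 and 60 to 114, which leaves a gap, and these label blocks of 24 and 50 animals were kept apart. Within each block the animals were ranked by the z score of RPS10, which is read by 1 probe set, a set of short oligonucleotides that measures 1 transcript. The top and the bottom 8 animals of the lower block and the top and the bottom 16 of the upper block made up 24 high and 24 low RPS10 animals. The other 26 animals, 8 and 18 of the blocks, lay between them. RPS10 was taken as marker because it varied with the other ribosomal protein genes in these same animals, so the counts for ribosomal protein genes below describe the groups and are not independent evidence.

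Ribosomal proteins are the protein part of the ribosome, which translates mRNA. Cells make them in near equal amounts for the small and the large subunit, and their mRNAs carry a 5′ terminal oligopyrimidine tract through which the mTOR pathway adjusts their translation. In skeletal muscle, the amount of ribosomes bears on the capacity for protein synthesis and growth.

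In scaled values, log2 RPS10 averaged 15.22 ± 0.171 (SD, n = 8) in high and 14.77 ± 0.151 (n = 8) in low animals of the lower block. It averaged 14.90 ± 0.0741 (n = 16) in high and 14.61 in low animals of the upper block. These values chose the groups and are given without a test. At the edges, the last high animal of the lower block had 15.09 and the first middle animal 15.08, while the last middle animal had 14.90 and the first low animal 14.85. The same 4 values of the upper block were 14.82, 14.81, 14.67 and 14.67. The groups are therefore cuts through a range without gaps at the edges, except that 1 low animal of the lower block, at 14.40, lay far under the next at 14.77.

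The array level, which is the log2 trimmed mean before scaling, enters the rule because each intensity is divided by it, and it moved with the groups. In the lower block the level ran from 5.65 to 6.36 in the 8 high animals, with a median of 6.22, and from 6.38 to 6.94 in the 8 low animals, with a median of 6.64, so that every high array was dimmer than every low array. The high array at 5.65 lay apart from the other 7. The means of the upper block were 6.92 in high and 7.11 in low animals and the groups overlapped. As deposited, before scaling, RPS10 itself differed by 0.07 on the log2 scale between high and low animals, against 0.35 after scaling. Over the 24 animals of the lower block scaled RPS10 had r = -0.837 with the array level and r = 0.109 with RPS10 as deposited. Over the 50 animals of the upper block the values were -0.462 and 0.131. These correlations share the scaling factor and are descriptions.

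The hybridisation controls, biotin-labelled bacterial transcripts that are added to each array and are not pig RNA, rose with RPS10 after scaling. Their summed log2 intensity was higher by 0.24 in high animals (two-sided permutation test within blocks, 100000 draws, p = 0.00031, adjusted p = 0.00155 over 10 array measures), by 0.42 in the lower and 0.14 in the upper block. They share the scaling factor with RPS10, and as deposited they differed by -0.04. Over the lower block their r with scaled RPS10 was 0.940, and over the upper block it was 0.375. The spiked poly-A controls differed by 0.33 after scaling (adjusted p = 0.0675) and by 0.06 as deposited. Signs of RNA quality did not pass the same test: the log2 ratio of the 3′ to the 5′ probe set differed by -0.01 for GAPDH (adjusted p = 0.656) and by 0.11 for actin (adjusted p = 0.08). How much of each difference below belongs to the array level and how much to the muscle cannot be told apart in the scaled values, so values under quantile normalization, which gives every array the same distribution, and with the array level as a covariate are given for the gene groups and for the genes that turn most on the scaling.

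**Figure D1:**
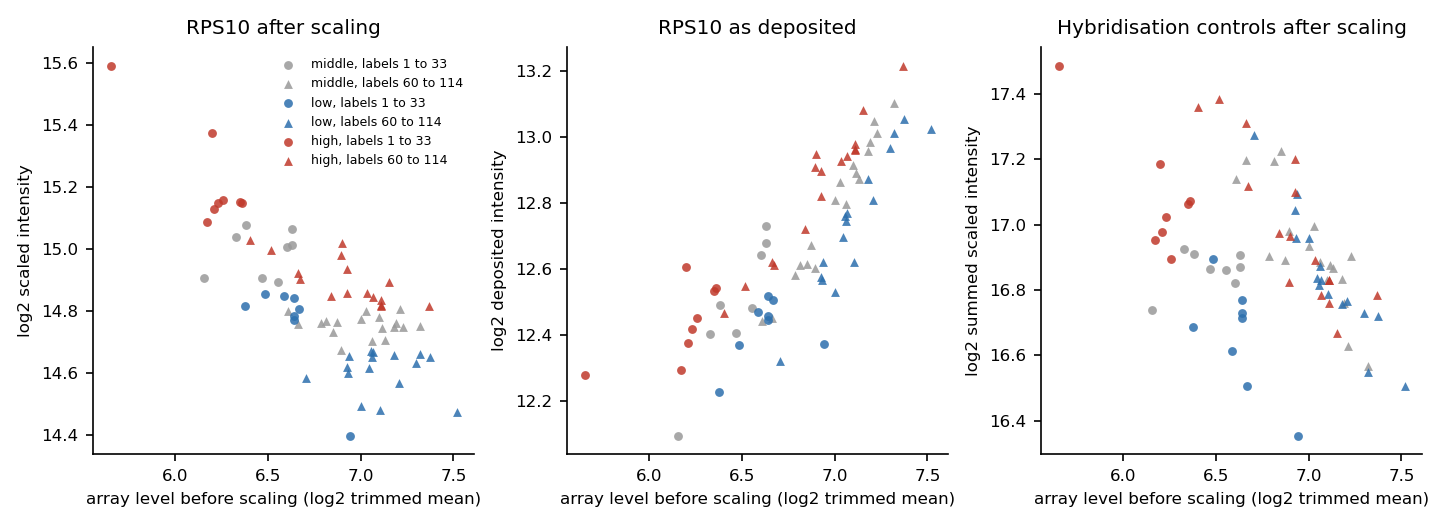
Each point is 1 of 74 animals, with the array level before scaling (log2 trimmed mean) on the x axes, colours for the high, middle and low RPS10 animals and symbols for the label blocks. The y axes give log2 RPS10 after scaling, log2 RPS10 as deposited, and the log2 summed hybridisation controls after scaling. Scaled RPS10 falls as the level rises, RPS10 as deposited differs little between high and low animals, and the controls fall with the level as scaled RPS10 does.

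The muscle label held in both groups. All 9 fast fibre genes kept were bright, with a median scaled intensity of 54866 per probe set over the genes, and the slow fibre genes MYH7 and MYL2 stood at 45724 and 47230. In bulk muscle, fewer cells of a type and less RNA per cell cannot be told apart.

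High and low animals were compared with limma, which fits every probe set with a term for the block, over 11643 probe sets with a median scaled intensity of at least 150, RPS10 and controls left out. At a Benjamini-Hochberg adjusted p under 0.05, 129 probe sets (1.11% of those tested) were higher and 21 (0.18%) lower in high RPS10 animals, together 1.29%, while 1745 had an unadjusted p under 0.05. Without the low animal that lay apart 110 were higher and 10 lower, and without the high array that lay apart 110 and 13. The median difference over all probe sets was -0.01 on the log2 scale. With 1 probe set per gene, that of the highest median, and only probe sets with 1 gene symbol, 81 of 4796 genes (1.69%) were higher and 4 (0.0834%) lower, together 1.77%. The interaction of group and block was called for 22 probe sets (0.189%), 11 in each direction (0.0945%), none of them among the 150 called between the groups. All 150 called probe sets had the same sign in both label blocks, and 147 differed more in the lower block. They were chosen by the difference over both blocks together, so the shared sign is no independent evidence. The 26 middle animals had no part in the fit, although their RPS10 lay between by construction. Their mean array level also lay between those of the high and low animals in each block. With block means removed, their mean intensity lay between for 149 of the 150 called probe sets and for 42.0% of all probe sets tested. The called probe sets were chosen for a difference between high and low animals, so the 42.0% is no baseline for them. Both counts are descriptions and not independent evidence.

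The ribosomal protein genes moved together with RPS10. Of 79 cytosolic ribosomal protein genes listed besides RPS10, 59 were on the array under a single symbol and 56 were kept. Of these, 35 were higher in high RPS10 animals and 21 did not pass, against 1.69% of all genes with 1 symbol called higher, a share that is given beside the count only because the marker was chosen for following these genes. The difference was above 0 in 56 of 56 genes, each read by its brightest probe set. Its median was 0.24 on the log2 scale, which is 17.7% in scaled intensity, and over all 4796 genes the median was 0.01. Dimmer ribosomal protein probe sets were less uniform, and none was called. Of those from 150 to 300 in median intensity 2 of 5 were above 0. From 300 to 1000 it was 7 of 12, and from 1000 to 3000 it was 2 of 4. The shares of other probe sets above 0 in these classes were 44.6%, 44.2% and 47.7%. Medians of the summed level of the 56 genes followed the order of the RPS10 groups. In the lower block its log2 ran from 20.56 to 20.89 in high animals, with a median of 20.65, from 20.40 to 20.62 in middle animals and from 20.10 to 20.44 in low animals. Medians in the upper block were 20.47, 20.36 and 20.25 in high, middle and low animals.

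In the small subunit, 16 of 23 kept genes were higher, with a median difference of 0.25. Log2 scaled intensity of RPS9, a core protein of the small subunit, ran from 14.22 to 14.81 in the 8 high animals of the lower block, with a median of 14.55, and from 13.89 to 14.35 in the 8 low animals, with a median of 14.03. In the upper block RPS9 ran from 13.96 to 14.33, with a median of 14.14, in the 16 high animals and from 13.55 to 14.12, with a median of 13.86, in the 16 low animals. Of the high animals, 6 of 8 and 9 of 16 lay above every low animal of their block. The difference in RPS9 was 0.32 ± 0.052 (SE) on the log2 scale, or 1.25-fold, with an adjusted p of 0.000267. It was 0.18 under quantile normalization and 0.29 with the array level as a covariate.

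Of the ribosomal protein genes given by animal, RPS21 overlapped least. It ran from 15.02 to 15.52 in high and from 14.47 to 14.87 in low animals of the lower block, where the groups did not overlap. In the upper block 14 of 16 high animals lay above every low animal, which reached 14.63. The difference was 0.28 ± 0.045 with an adjusted p of 0.000267. RPS19, which is needed to mature the RNA of the small subunit and is mutated in Diamond-Blackfan anaemia, differed by 0.30 ± 0.049 and RPS13 by 0.30 ± 0.065, with adjusted p-values of 0.000267 and 0.00716. In both genes all 8 high animals of the lower block lay above all 8 low animals. The differences of RPS21, RPS19 and RPS13 were 0.06, 0.06 and 0.07 under quantile normalization and 0.17, 0.18 and 0.09 with the level as a covariate.

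At the other end, RPS25 differed by 0.10, RPS3A by 0.11 and RPS27A, whose product is made as a fusion with ubiquitin, by 0.12. None of these 3 passed the test. Their probe sets were as bright as those of the called genes, with medians of 23398, 29565 and 26310. With the level as a covariate these 3 genes differed by 0.15, 0.24 and 0.26, and under quantile normalization by -0.08, -0.07 and -0.07.

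In the large subunit, 19 of 33 kept genes were higher, with a median difference of 0.22. RPLP2, which with RPLP1 forms the stalk that recruits elongation factors, had the largest difference of all ribosomal protein genes. Its log2 scaled intensity ran from 13.82 to 14.89 in high animals of the lower block, with a median of 14.54, and from 13.34 to 13.98 in low animals, with a median of 13.58. In the upper block it ran from 13.41 to 14.05 in high and from 13.07 to 13.97 in low animals. Only 3 of the 16 high animals of the upper block lay above all low animals there, against 7 of 8 in the lower block. The difference was 0.45 ± 0.083, or 1.36-fold, with an adjusted p of 0.000996. It was 0.32 under quantile normalization and 0.36 with the level as a covariate.

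RPLP1 differed by 0.30 ± 0.051 (adjusted p = 0.000404). RPL35, which sits near the exit of the nascent chain, had the smallest p-value of the large subunit, with a difference of 0.29 ± 0.045 and an adjusted p of 0.000192. It ran from 15.02 to 15.42 in high and from 14.43 to 14.92 in low animals of the lower block, without overlap, and in the upper block 9 of 16 high animals lay above every low animal. RPL13 differed by 0.29 ± 0.047 (adjusted p = 0.000267), and 13 of 16 high animals of the upper block lay above every low animal. RPLP1, RPL35 and RPL13 stood at 0.08, 0.08 and 0.17 under quantile normalization and at 0.20, 0.23 and 0.22 with the level as a covariate. Dimmer probe sets of RPLP1 and RPL35, with medians of 258 and 767, differed by -0.02 and -0.06 and were not called.

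RPL23, RPL4 and RPL9 were the large subunit genes with the smallest differences, 0.02, 0.06 and 0.08, and did not pass the test. They differed in sign between the blocks. RPL23 ran from 12.75 to 13.83 in high and from 13.36 to 14.08 in low animals of the lower block, a difference of -0.37, while in the upper block the difference was 0.21 and 9 of 16 high animals lay above every low animal. RPL4 had -0.17 and 0.18, and RPL9 -0.11 and 0.18. In the lower block 51 of 56 ribosomal protein genes differed above 0, from -0.37 to 0.83, with a median of 0.35. In the upper block 55 of 56 did, over the narrower range from -0.09 for RPL3 to 0.26 for RPLP1, with a median of 0.19. The difference between the blocks, tested by an interaction term, passed for none of the 56 genes, and the smallest adjusted p was 0.0625.

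**Figure D2:**
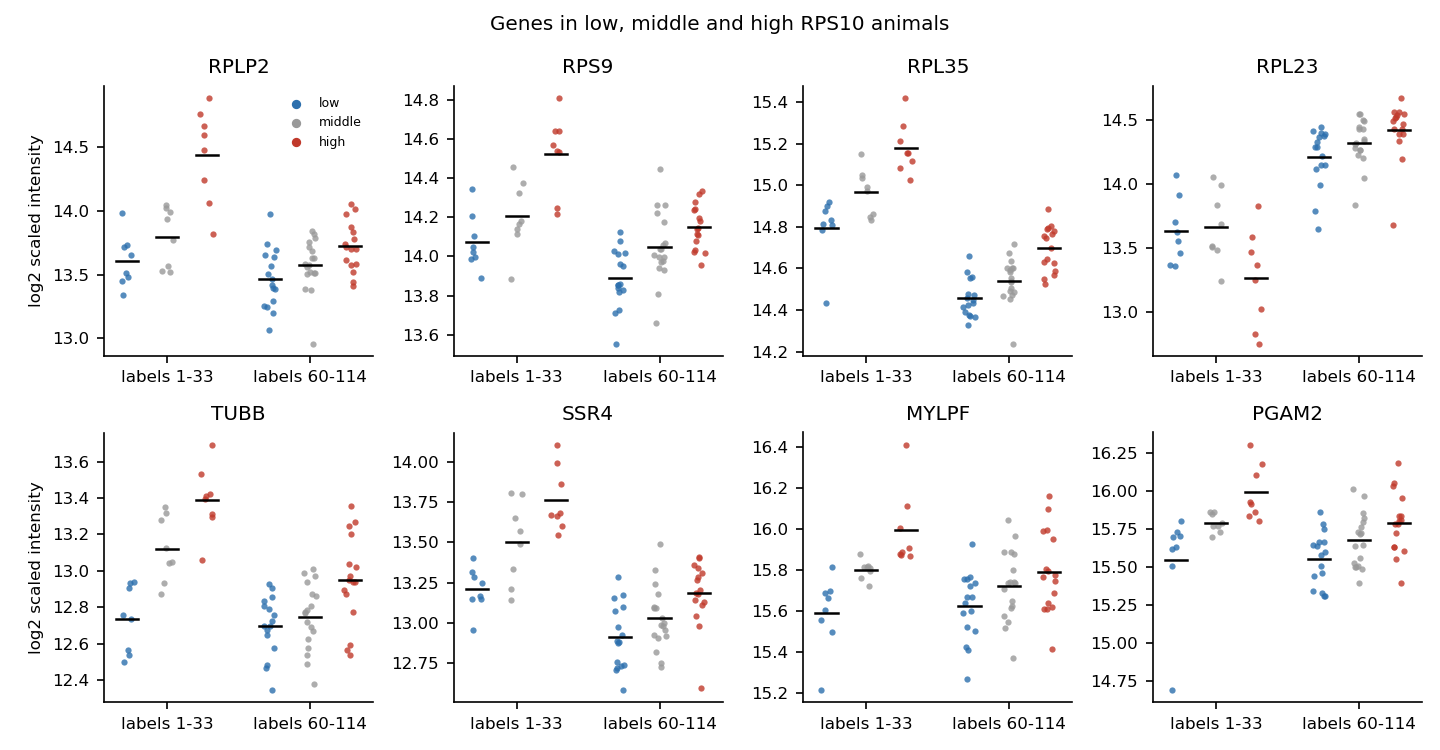
Log2 scaled intensity of 8 genes, 1 point per animal, in low, middle and high RPS10 animals of each label block, with bars at the group means. RPLP2, RPS9 and RPL35 step up from low to high in both blocks, RPL23 is lower in high animals of the lower block and higher in those of the upper block, and TUBB, SSR4, MYLPF and PGAM2, which are not ribosomal, step up as well.

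The brightest probe sets had the largest median difference. Of the 129 higher probe sets, 91 had a median scaled intensity of at least 20000 and 39 belonged to ribosomal protein genes. Among the 197 probe sets of at least 20000, 91 (46.2%) were higher. The ribosomal protein genes among them had a median difference of 0.24, with 34 of 47 probe sets higher, and the other 150 had a median of 0.22, with 57 higher. Between 10000 and 20000, 5 of 10 ribosomal protein probe sets were higher, with a median of 0.21, and 6 of 170 others, with a median of 0.10. Between 1000 and 3000 the medians were 0.09 for 4 ribosomal protein probe sets, none of them higher, and -0.01 for 2092 others, 6 of them higher, and between 300 and 1000 they were 0.07 and -0.02. Between 150 and 300 the medians were -0.02 for 5 ribosomal protein probe sets and -0.02 for 3483 others. As deposited, the median difference was -0.30 for probe sets of 150 to 300 and -0.05 for those of at least 20000, so that the brightest probe sets differed least between the dimmer and the brighter arrays.

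Under quantile normalization no probe set was called by limma, and 1 probe set per ribosomal protein gene gave a median difference of 0.02, with 41 of 56 above 0, where all genes had a median of 0.02 and 54.4% above 0. With the array level as a covariate the median of the 47 ribosomal protein probe sets of at least 20000 was 0.18 and that of the other 150 was 0.06, a difference that was not tested. In that fit 55 of 56 ribosomal protein genes differed above 0, with a median of 0.18, beside 51.6% of all genes and a median of 0.01, and 4 of the 56 were called among 8 probe sets called in all. With the hybridisation controls as a covariate, chosen after seeing the data, the median was 0.19 and 18 of the 56 were called among 27 in all. When the animals were grouped anew by quantile-normalized RPS10, also chosen after seeing the data, 17 of 24 high and 17 of 24 low animals stayed in their group. Of the others, 1 high animal moved to the low group. The median of the ribosomal protein genes was then 0.06, with 1 of the 56 called.

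**Figure D3:**
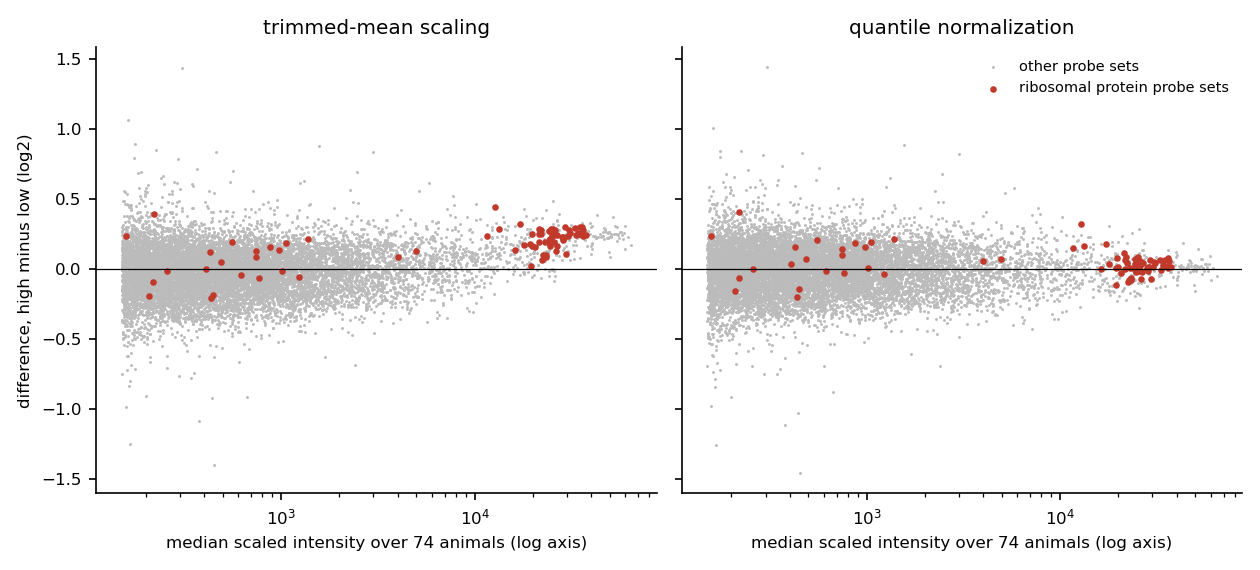
Difference between high and low RPS10 animals (log2) against the median scaled intensity of each probe set over 74 animals (log axis), for trimmed-mean scaling and for quantile normalization. Ribosomal protein probe sets are red. After scaling, bright probe sets lie above 0 whether ribosomal or not, and after quantile normalization the same probe sets lie around 0.

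Of 35 kept genes of translation factors 5 (14.3%, beside 1.69% of all genes) were higher and none lower, with a median difference of 0.04. EEF1B2, EEF1D and EEF1G, the subunits of the complex that recharges the elongation factor eEF1A with GTP, differed by 0.20 ± 0.042, 0.30 ± 0.067 and 0.23 ± 0.049, with adjusted p-values of 0.00376, 0.00918 and 0.0051. In EEF1B2 and EEF1D the 8 high animals of the lower block lay above all 8 low animals, and in the upper block 9 and 6 of 16 did. EIF3K, a subunit of the scaffold factor eIF3, differed by 0.33 ± 0.069 (adjusted p = 0.00382) and EIF1, which takes part in the choice of the start codon, by 0.22 ± 0.056 (adjusted p = 0.0269). All 5 were bright, with medians from 12348 to 42319, and under quantile normalization the differences of EEF1B2, EEF1G and EIF1 were -0.01, 0.02 and 0.01, those of EEF1D and EIF3K 0.21 and 0.23. With the level as a covariate EEF1D and EIF3K stood at 0.32 and 0.17. EIF4A2 and EIF4G2, equally bright at 25921 and 25034, differed by -0.05 and -0.01 after scaling. EEF1E1, a scaffold protein of the tRNA synthetase complex, lay farthest the other way at -0.35 and did not pass. A second probe set of EIF1, with a median of 33827, differed by 0.22 and was not called.

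Of 8 other genes whose mRNAs carry the oligopyrimidine tract, RACK1 and TPT1 were higher (25%, beside 1.69% of all genes). Both were bright, with medians of 32137 and 45544. Of all probe sets of at least 20000, 46.2% were higher. RACK1, a scaffold protein bound to the small subunit, ran from 15.22 to 15.78 in high and from 14.67 to 15.02 in low animals of the lower block, without overlap. The difference was 0.30 ± 0.053 with an adjusted p of 0.000538, and for TPT1, a growth-related protein that binds tubulin, it was 0.23 ± 0.056 with an adjusted p of 0.0197. The values under quantile normalization were 0.07 and 0.01. PABPC1, NPM1, HNRNPA1 and NAP1L1 differed by -0.01, -0.09, -0.005 and -0.14, and NACA and BTF3 by 0.12 and 0.14, with no call. The median over the 8 was 0.06.

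None of 18 kept genes of the mTOR and MYC pathway passed, with a median of 0.06. MYC, the transcription factor that drives ribosome production, had the largest difference of the 18, at 0.25. MXI1, its antagonist, lay farthest the other way at -0.18 ± 0.203 (SE). It stood at -0.67 in the lower and 0.07 in the upper block, and at 0.29 with the array level as a covariate. Of 46 genes of ribosome assembly 1 (2.17%) was higher, close to the 1.69% of all genes. It was POLR1D, a subunit of RNA polymerases I and III, with 0.27 ± 0.071 (adjusted p = 0.0336), which did not pass without the low animal (0.27) or without the high array (0.25) that lay apart. NOP58, a core protein of box C/D small nucleolar particles, lay farthest the other way at -0.25, and at 0.04 with the array level as a covariate. The mitochondrial ribosome, which is built from a separate set of genes, gave 1 higher gene of 57 (1.75%), also close to that share. It was MRPL52 (0.25 ± 0.066, adjusted p = 0.0349), which did not pass without that low animal (0.23), with a list median of 0.05 and MRPS22 at -0.22.

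Genes of glycolysis and of fast fibres were called at shares close to the 62.5% of the ribosomal protein genes. Of all genes 1.69% were called higher. Of the probe sets of at least 20000 that were not ribosomal, 38% were. Of 13 kept genes of glycolysis and glycogen breakdown 8 (61.5%) were higher, with a median difference of 0.25 and a median intensity of 41153. PGAM2, the muscle phosphoglycerate mutase, ran from 15.80 to 16.31 in high and from 14.69 to 15.81 in low animals of the lower block, where the lowest value belongs to 1 low animal that lay apart. Its difference was 0.30 ± 0.070, that of PYGM, the muscle glycogen phosphorylase, 0.27 ± 0.064, and that of ENO3, the muscle enolase, 0.26 ± 0.063, with adjusted p-values of 0.0119, 0.0188 and 0.02. Other probe sets of PYGM differed by 0.26, 0.27 and 0.29, and only the last was called. PHKB, a subunit of phosphorylase kinase, was at -0.10 and not called. Of 9 fast fibre genes 5 (55.6%) were higher, with a median of 0.26. TPM1 (tropomyosin), MYLPF (the fast regulatory myosin light chain) and TNNT3 (fast troponin T) differed by 0.26, 0.25 and 0.27, with adjusted p-values of 0.0119, 0.0226 and 0.0239. A dimmer probe set of TPM1, with a median of 2248, differed by -0.08 and was not called. TNNI2, fast troponin I, differed by 0.22 and did not pass. Under quantile normalization these 3 called genes stood at 0.03, 0.01 and 0.04, and PGAM2 at 0.07. The slow fibre genes, with a median of 0.15, had no called gene among 10. With the array level as a covariate the medians were 0.07 for glycolysis and 0.03 for fast fibres.

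Beyond RPLP2, RPS9 and EIF3K, the called genes with the largest differences were of several kinds. TUBB, a beta tubulin, ran from 13.06 to 13.69 in high and from 12.50 to 12.94 in low animals of the lower block, without overlap, and 10 of 16 high animals of the upper block lay above every low animal. Its difference of 0.38 ± 0.069 (adjusted p = 0.000576) was 0.34 under quantile normalization. SSR4, a subunit of the translocon-associated protein complex of the endoplasmic reticulum, ran from 13.54 to 14.11 in high and from 12.96 to 13.40 in low animals of the lower block. It differed by 0.37 ± 0.064 (adjusted p = 0.000404), and by 0.30 under quantile normalization. LGALS1 (galectin-1) differed by 0.38, MACROD1, an ADP-ribose hydrolase, by 0.35, HSPB1, a small heat shock protein, by 0.34, FXYD7, a regulator of the sodium pump, by 0.32 and POP7, a subunit of ribonucleases P and MRP, by 0.31. These 5 stood at 0.19, 0.19, 0.13, 0.23 and 0.33 under quantile normalization.

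The 21 lower probe sets were dim, with medians from 156 to 2405, and 16 of them had no symbol. The 4 named genes were CLK4, a kinase of splicing factors, at -0.43 ± 0.114, TMEM181 at -0.34 ± 0.087, SNX14, a sorting nexin, at -0.31 ± 0.077 and EAF1, a partner of the elongation factor ELL, at -0.30 ± 0.080, with adjusted p-values of 0.0386, 0.0303, 0.0224 and 0.042. EAF1 ran from 8.21 to 8.87 in high and from 8.95 to 9.62 in low animals of the lower block, without overlap, and the groups overlapped in the upper block. In SNX14 the lower block gave 7.62 to 8.66 in high and 8.47 to 9.12 in low animals. CLK4 and EAF1 did not pass without the low animal (-0.42 and -0.27) or without the high array (-0.42 and -0.27) that lay apart, and TMEM181 did not without the high array (-0.32).

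The remaining lists held 1 called gene. HSPB1 was the only one of 28 heat shock genes to pass, with a list median of 0.02 and CCT6A at -0.29. HSPB1 did not pass without the low animal (0.34) or the high array (0.32) that lay apart. Of 60 genes of oxidative phosphorylation none passed, with a median of 0.07 and COX7A1 at -0.24. COX7A1 stood at -1.07 in the lower and 0.17 in the upper block. With the array level as a covariate COX7A1 and CCT6A stood at 0.01 and 0.04. No gene passed in the citric acid cycle (17 genes, median -0.02), fatty acid oxidation (19, median -0.004), the proteasome (38, median 0.05), the atrophy and FOXO genes (11, median -0.04), the amino acid stress response (10, median 0.14), the immediate early genes (17, median 0.23), splicing and hnRNP genes (45, median -0.01) or the extracellular matrix (21, median 0.04).

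Among markers of other cells, none of 11 adipocyte genes passed, and all 11 differed above 0, with a median of 0.52, against 53.5% of all genes. The range ran from 0.13 for RETN, the gene of resistin, to 0.88 for FASN, the fatty acid synthase. The adipocyte median was 1.105 in the lower and 0.13 in the upper block, and 0.83 with the array level and 0.79 with the hybridisation controls as a covariate. The log2 summed level of the 11 genes ran from 13.76 to 16.63 in high and from 13.18 to 14.71 in low animals of the lower block, and from 13.59 to 15.48 and 13.03 to 16.01 in the upper block, so the groups overlapped in both. No marker passed for satellite and myogenic cells (7 genes, median 0.09), endothelium (11, median 0.03), leukocytes (9, median -0.08), erythroid cells (3, median 0.07), nerve and Schwann cells (2, median -0.04), smooth muscle (9, median 0.11) or fibroblasts (9, median -0.05). The part of these cells in the results was not tested.

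**Figure D4:**
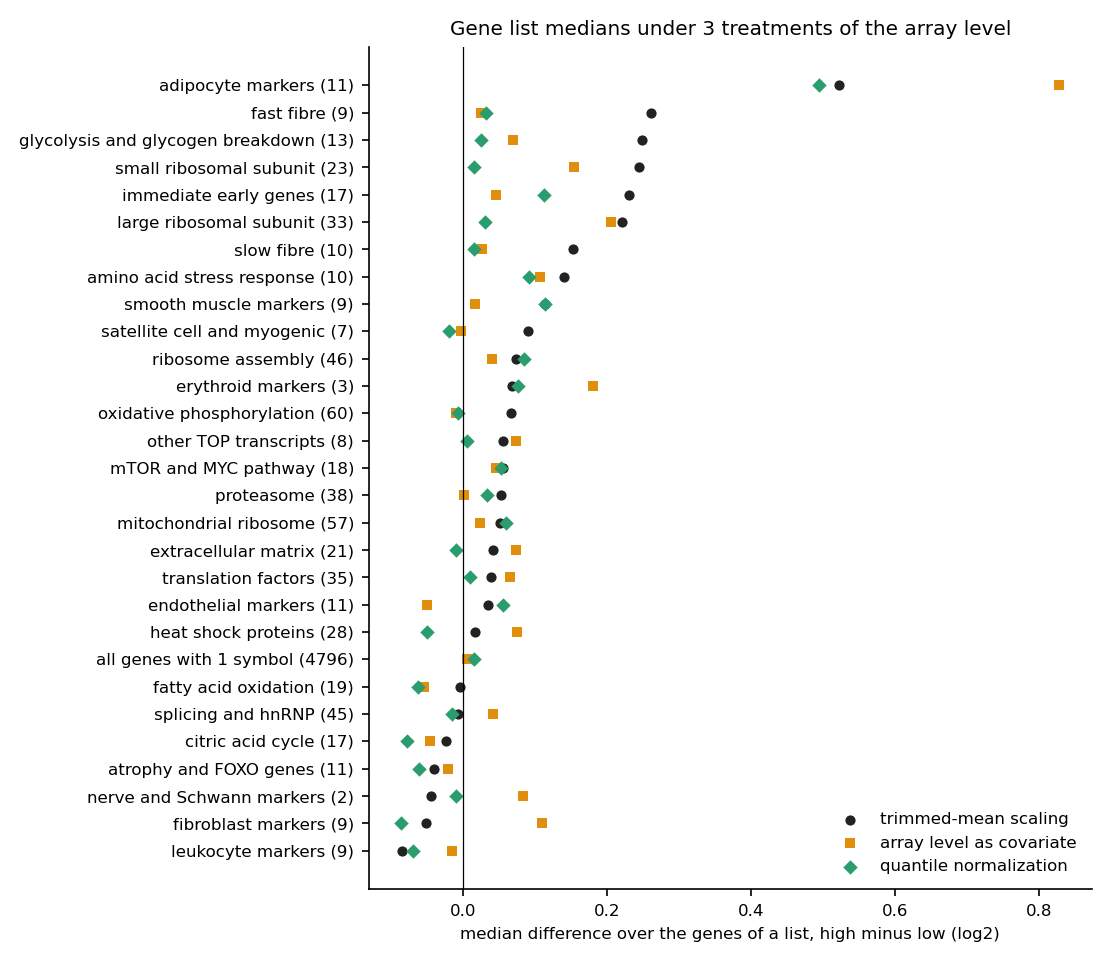
Median difference between high and low RPS10 animals (log2) over the kept genes of each list, with the number of genes in brackets, after trimmed-mean scaling, with the array level as a covariate and under quantile normalization. The small and large subunit lie at 0.25 and 0.22 after scaling, beside glycolysis at 0.25 and fast fibres at 0.26, and at 0.15 and 0.21 with the level as covariate, where glycolysis is at 0.07 and fast fibres at 0.03.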

How the data were processed

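RNA was measured with 1 array per animal. The authors processed the scans with GCOS 1.1.1, per the labels, and deposited linear intensities for 24123 probe sets, 124 being controls. The authors' methods name both a global scaling with 500 as target and PLIER estimates, and do not say which gave these values. The deposited arrays are not at that target: their trimmed means ran from 50.3 to 183. Arrays have no read depth, and their number limits the precision.

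The members and gene lists were chosen with earlier results of these data known. Scaling, groups and filter are those of the report. Symbols came from the platform annotation, with 6228 kept probe sets having 1 symbol, 133 several and 5283 none. Probe sets of near-identical ribosomal protein genes or pseudogenes may read more than 1 transcript. limma 3.58.1 in R 4.3.3 fitted the group and the block, and was tested on simulated data. Python 3.11.15 with numpy 2.4.6 and pandas 2.3.3 did the rest. Named genes are the 10 of the largest difference each way among those called, up to 3 called genes of smallest p and the gene farthest against the median in each list, both ends of the subunit lists, and called translation genes. Others, among them the plotted genes, the bright uncalled factors and FASN, were chosen after their values were seen, as were the intensity classes and the lists whose counts were followed under the alternatives. Alternatives were the deposited values, quantile normalization, a pseudocount of 16, other filters, single blocks, all animals with RPS10 as a continuous measure, covariates, and leaving out animals.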

Additional observations from a re-analysis of the deposited data

Results flagged for a closer look

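POLR1E, a subunit of RNA polymerase I, differed between the label blocks. Its log2 scaled intensity averaged 8.13 ± 0.611 (SD, n = 8) in high and 6.76 ± 0.772 in low animals of the lower block, and the means of the upper block were 7.94 and 8.20 (n = 16). The interaction of group and block was -1.62 (limma, adjusted p = 0.0155). It was 1 of 22 probe sets (0.189% of those tested) with a called interaction.

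In the lower block, the groups of 8 were searched for an animal apart from the other 7, by the gap to the next animal divided by the range (above Dixon's critical value at 95%; chance gives about 1 in 20 groups). This held in 33 of 138 groups searched in this block. The groups share arrays and were cut from the ends of the RPS10 range. RPS10 itself and the array level are among the flagged measures, so the 1 in 20 is no baseline for this count. One low animal, the one with the lowest RPS10 (ratio 0.820) and a level of 6.94, was apart in 19 genes. It was the lowest in EIF3K (0.7997), PHKB (0.777), MACROD1 (0.740), PGAM2 (0.730), RPL35 (0.720), EEF1D (0.716), TPM1 (0.705), PYGM (0.669), RPS19 (0.669), RPLP1 (0.661), EIF1 (0.614), TNNT3 (0.580), TPT1 (0.580), TNNI2 (0.569), ENO3 (0.563), MBP (0.555), RACK1 (0.550) and EEF1B2 (0.531), and the highest in EAF1 (0.550).

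One high animal, whose array level of 5.65 was itself apart (0.733), was the highest in CS (0.609), RACK1 (0.601), POLR1D (0.586), EEF1B2 (0.556), MYLPF (0.552) and RPS21 (0.539), and the lowest in MTHFD2 (0.866), NOP58 (0.647) and HBB (0.616). Other low animals were lowest in LSM2 (0.623) and CCT6A (0.551), and another high animal was highest in KLF4 (0.556). The ribosomal protein genes had a median difference of 0.22 without the low animal and likewise 0.22 without the high array, with 35 and 36 of 56 called.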

How the results depend on the processing

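After scaling, 129 probe sets were higher and 21 lower, and this count depended on the treatment of the array level. Higher and lower probe sets numbered 0 and 5331 in the values as deposited, 0 and 0 under quantile normalization, 8 and 0 with the array level as a covariate, 27 and 0 with the hybridisation controls as a covariate and 6 and 6 after regrouping on quantile-normalized values. They numbered 74 and 3 without a filter, 2 and 5 in the lower block, 0 and 0 in the upper block, 1109 and 1659 with all 74 animals and RPS10 as a continuous measure, and 81 and 7 without the block term. The unadjusted p was under 0.05 for 1527 probe sets under quantile normalization and 777 in the upper block. Lower probe sets numbered 37 with the 3′ to 5′ ratio as a covariate, where 135 were higher. They numbered 10 without the low animal that lay apart and 13 without the high array of lowest level, with 110 higher in both. The last 2 settings, the regrouping and the hybridisation covariate were chosen after seeing the data. Ribosomal protein genes called higher, 35 after scaling, numbered 0 as deposited, under quantile normalization and in each block alone, 4 with the array level, 18 with the hybridisation controls and 1 after regrouping. Genes of glycolysis (8), fast fibres (5) and translation factors (5) gave 0 in those 7 settings. Without a filter glycolysis and fast fibres gave 1 each, beside 49 of all 4796 genes. Without the block term glycolysis gave 5 and translation factors 3, beside 56 of all genes. With all animals fast fibres gave 9 and translation factors 12, beside 647 of all genes. All 150 called probe sets had the same sign with the array level as a covariate, and 140 under quantile normalization, where EEF1B2 turned to -0.0128. After regrouping EEF1B2, EIF1 and TPT1 turned to -0.0110, -0.000512 and -0.0118. The hybridisation controls differed by 0.14 in the upper block, where they did not pass, and the poly-A controls by 0.68 in the lower block, where they did. Family, sex and slaughter date could not be fitted.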
